A study of Mus musculus with 24 samples.

Results

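Glutathione transferases, the glutathione-dependent peroxidases and the enzymes switched on by the transcription factor NRF2 form a detoxification programme of the liver. The list examined here holds 39 mouse genes, named as transferases of each class, enzymes of glutathione synthesis and recycling, glutathione peroxidases, NRF2 with its sensor KEAP1, and classical NRF2 enzymes. Of these, 35 had a probe set of their own among the 18820 genes tested, and where a gene had several, the one with the highest mean over all arrays was used. The other 4, Gsta2, Gstm5, Gstp2 and Gstz1, were read only by probe sets that also carry another gene's symbol, and are described apart. The genes were listed by name and class, but the list was drawn up with earlier results of these data known.

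The data are 24 whole-liver Affymetrix arrays from 8 groups of 3 mice, each array from a separate animal. NEMO/JNKΔhepa triple knockout livers were compared with control livers at 52 weeks without treatment. JNKΔhepa double knockout livers were compared with control livers from mice labelled as treated with diethylnitrosamine (DEN) for 40 days. DEN is a carcinogen that hepatocytes activate, and "after DEN" below refers to these livers. The same genotypes were compared again 28 days after bile duct ligation (BDL), which blocks bile flow. NEMO/JNK1Δhepa double knockout livers were compared with NEMO single knockout livers at 8 weeks without treatment. The mice carried the Alb-Cre transgene, which deletes floxed genes in hepatocytes, or were their controls, on a C57BL/6 background. JNKΔhepa mice combine floxed Jnk1 with a Jnk2 allele that is null in the whole body, and floxed NEMO mice are named among the controls. The ages of the DEN and BDL mice are not given, and no untreated JNKΔhepa livers and no 8-week livers with intact NEMO were analysed here. Because each array reads whole liver, fewer cells of a type and less RNA per cell cannot be told apart.

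Several livers and groups did not match a simple reading of their labels. Mapk9, which encodes JNK2, read 2.82 to 3.51 (log2 value) in all 18 livers from the 52-week, DEN and BDL groups, including the 9 labelled control, and 7.99 to 8.53 in the 6 livers at 8 weeks. The comparisons against control livers therefore hold no visible difference in Jnk2. Mapk8 (JNK1) fell by 0.87 in NEMO/JNKΔhepa livers at 52 weeks (adjusted p = 0.00259) and by 1.02 in JNKΔhepa livers after BDL (adjusted p = 0.0299), and its difference was -0.64 after DEN (adjusted p = 0.985) and -0.61 at 8 weeks (adjusted p = 0.602; limma throughout). Ikbkg, which encodes NEMO, was lower by 0.85 in NEMO/JNKΔhepa livers (adjusted p = 0.0043). It read 6.76 to 7.26 in the 6 livers at 8 weeks, all of them NEMO knockouts by label. JNKΔhepa DEN liver 3 read 10.38 for Xist and 3.66 for the Y-linked Kdm5d, against 2.16 to 3.87 and 5.86 to 6.81 in the other 23 livers. The labels give no sex, so the values after DEN that rest on this liver are repeated without it. At 8 weeks the prefix of the animal number differed between the groups, so that whatever it marks and the genotype cannot be told apart.

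Glutathione transferases join glutathione to reactive electrophiles such as carcinogen epoxides and lipid aldehydes, and the liver is among their main sites. NRF2, encoded by Nfe2l2, is held in the cytoplasm and marked for degradation by KEAP1. Electrophiles and oxidants modify KEAP1, NRF2 then enters the nucleus, and with small MAF proteins it binds antioxidant response elements near genes for glutathione synthesis, transferases and quinone-reducing enzymes.

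In NEMO/JNKΔhepa livers at 52 weeks, 10 of the 35 genes were higher and 3 lower than in control livers, at an adjusted p below 0.05. Over all 18820 genes, 13.6 percent were higher and 7.9 percent lower, so a share of this size has to be read against a liver in which 21.5 percent of all genes moved. After BDL, 3 of the 35 were lower and 0 higher in JNKΔhepa livers, where 0.558 percent of all genes were lower and 0.797 percent higher. After DEN the same knockout gave 0 calls among the 35, and 0 percent of all genes were called. NEMO/JNK1Δhepa livers at 8 weeks also gave 0 calls among the 35, and 0 percent of all genes. At an unadjusted p below 0.05, limma passed 1 of the 35 after DEN (4.15 percent of all genes) and 7 at 8 weeks (7.66 percent).

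**Figure D1:**
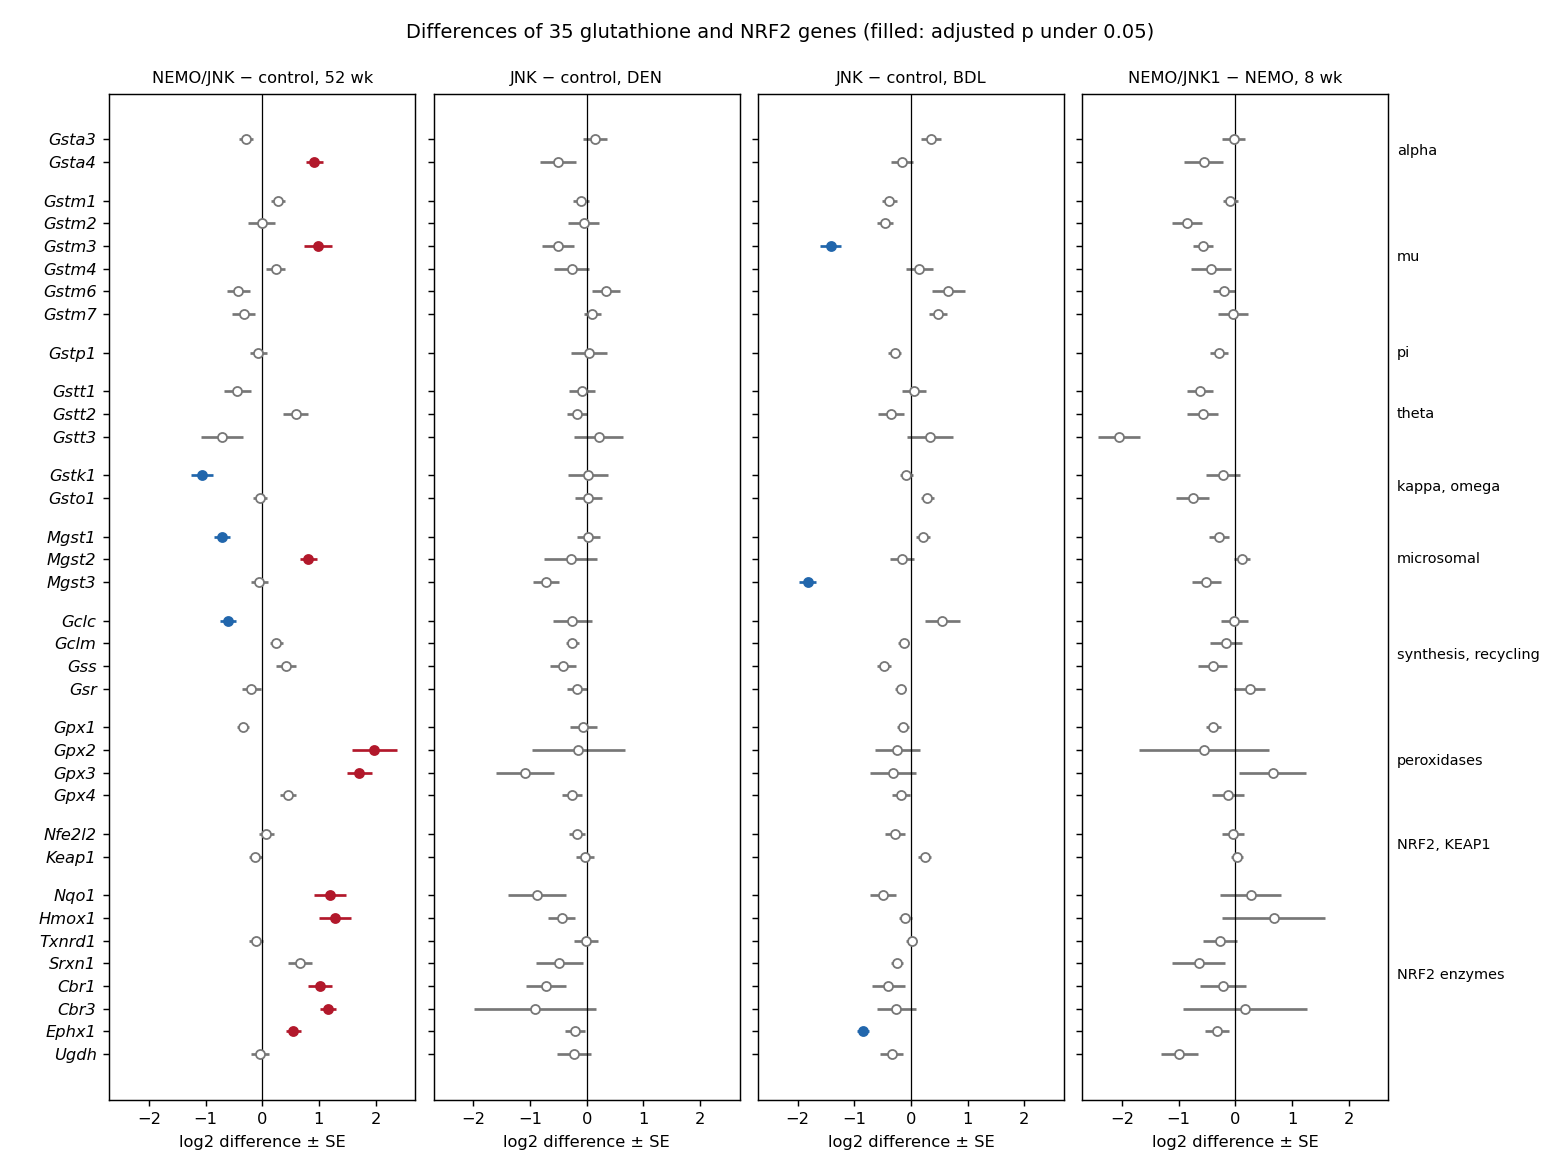
Differences in log2 value, knockout minus its comparison group, for each of the 35 genes in the 4 comparisons, with 3 livers a group and lines of 1 SE to each side. Filled points are those with an adjusted p below 0.05, which are 13 genes at 52 weeks, 3 after BDL and 0 in the other comparisons.

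The differences leaned below 0 in 3 of the comparisons. They were below 0 for 27 of the 35 genes after DEN, 24 after BDL and 28 at 8 weeks, against 54.9, 50.4 and 50.6 percent of all genes. At 52 weeks 17 were below 0, against 55.3 percent of all genes. The median difference over the 35 was -0.174 after DEN, -0.174 after BDL, -0.273 at 8 weeks and 0.072 at 52 weeks, beside medians over all genes of -0.02, -0.002, -0.003 and -0.045. Without JNKΔhepa DEN liver 3, 27 of the 35 were still below 0 after DEN, with a median of -0.16. These are descriptions of a list whose genes were read in the same livers, and carry no test.

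The genes that changed after BDL, Mgst3, Ephx1 and Gstm3, all fell, so the 250 bases before their start sites are shown first, on each gene's own strand, from RefSeq (build GRCm38.p6). Mgst3 is at chr1:167393842-167394091 on the minus strand, Ephx1 at chr1:181017570-181017819 on the minus strand and Gstm3 at chr3:107969175-107969424 on the minus strand. Mgst2 at chr3:51660929-51661178 and Mgst1 at chr6:138140277-138140526, both on the plus strand, follow. Among the genes called at 52 weeks whose windows could be searched, they alone hold either motif. Capitals mark the match.
Mgst3: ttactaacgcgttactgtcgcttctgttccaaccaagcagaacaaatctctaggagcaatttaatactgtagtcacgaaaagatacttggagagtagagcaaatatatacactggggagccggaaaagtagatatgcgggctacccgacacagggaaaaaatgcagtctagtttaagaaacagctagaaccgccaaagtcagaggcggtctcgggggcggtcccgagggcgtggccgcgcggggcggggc
Ephx1: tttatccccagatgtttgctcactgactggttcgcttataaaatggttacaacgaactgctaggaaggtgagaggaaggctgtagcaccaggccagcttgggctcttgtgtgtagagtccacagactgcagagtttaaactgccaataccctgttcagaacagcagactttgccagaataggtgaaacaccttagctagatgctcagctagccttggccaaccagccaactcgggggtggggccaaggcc
Gstm3: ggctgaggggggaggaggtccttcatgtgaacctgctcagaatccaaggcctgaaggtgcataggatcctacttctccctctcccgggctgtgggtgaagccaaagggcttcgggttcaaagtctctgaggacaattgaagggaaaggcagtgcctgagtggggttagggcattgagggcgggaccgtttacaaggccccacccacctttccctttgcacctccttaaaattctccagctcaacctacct
Mgst2: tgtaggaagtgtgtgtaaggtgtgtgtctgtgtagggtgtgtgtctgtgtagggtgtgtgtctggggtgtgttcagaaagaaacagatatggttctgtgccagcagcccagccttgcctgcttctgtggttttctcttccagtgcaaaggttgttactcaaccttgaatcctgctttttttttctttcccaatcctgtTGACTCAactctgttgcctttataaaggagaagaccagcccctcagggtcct
Mgst1: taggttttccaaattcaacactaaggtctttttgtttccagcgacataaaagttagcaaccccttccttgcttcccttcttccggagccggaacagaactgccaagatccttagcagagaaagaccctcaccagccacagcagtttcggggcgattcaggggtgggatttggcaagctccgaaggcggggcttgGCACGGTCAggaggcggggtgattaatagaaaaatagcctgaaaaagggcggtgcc
The search covered windows of 250 bases before to 50 after each start, on both strands, for the core of the antioxidant response element, TGACNNNGC, and for the AP-1 motif TGANTCA, which can lie within a longer version of that element. Windows were found for 34 of the 39 listed genes. The antioxidant response core was in 9 of these 34 (26.5 percent), against 14 percent of the 27025 genes whose windows were searched. The windows of 1 chromosome, which holds none of the 39 listed genes, were left out of the search. The AP-1 letters were in 5 of 34 (14.7 percent), against 8.97 percent. Of the 10 genes higher at 52 weeks, 8 had a window, 0 held the antioxidant response core and 1, Mgst2, held the AP-1 letters. They lie 52 bases before the start used for Mgst2, which is inside the gene's annotated span. That span begins at chr3:51636912. Of the 3 lower genes, 2 had a window, and Mgst1 held the core on the opposite strand, 56 bases before its start. Neither motif was found in the windows of Mgst3, Ephx1 and Gstm3, which says only that these letters are not in these stretches. The same limit holds for the genes called at 52 weeks, of which Gsta4, Hmox1 and Gclc had no window and were not searched.

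At 52 weeks the alpha class differed from member to member. Gsta4, the alpha transferase best known for conjugating the lipid aldehyde 4-hydroxynonenal, read 10.09, 10.41 and 10.26 in NEMO/JNKΔhepa livers, against 9.07, 9.40 and 9.52 in control livers. Every knockout liver was above every control liver, a 1.9-fold increase (log2 difference 0.92, SE 0.15, adjusted p = 0.00336), and the call held under all the alternatives run. Gsta3, which in mice conjugates the activated form of aflatoxin, read 11.52, 11.72 and 11.73 in knockout livers, against 11.82, 12.04 and 11.98 in control livers. The groups did not overlap, but the difference of -0.29 was not called (adjusted p = 0.135). The 4 probe sets shared by Gsta1, Gsta2 and predicted alpha genes stood 1.06 to 1.16 higher in knockout livers, with adjusted p-values of 0.00447 to 0.00616 over the 1881 probe sets that carry several symbols. Which of these near-identical genes gave the signal cannot be read from them.

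The mu class genes are annotated side by side on chromosome 3, and of the 6 with a probe set of their own 1 passed the test. Gstm3 read 11.88, 12.35 and 12.10 in NEMO/JNKΔhepa livers, against 10.67, 11.70 and 11.02 in control livers (difference 0.98, SE 0.25, adjusted p = 0.0228). Its second probe set read 11.11, 11.89 and 11.38 against 9.77, 10.85 and 9.79, in the same direction. The array's annotation gives both sets the same transcript, and whether either also reads a related sequence elsewhere was not checked. The call for Gstm3 was lost without control liver 1 (adjusted p = 0.0648), control liver 3 (0.0715), knockout liver 2 (0.0686) or knockout liver 3 (0.066). Gstm1, an abundant mu transferase of liver, had a difference of 0.28 (adjusted p = 0.121), with each knockout liver above each control liver. Gstm2, Gstm4, Gstm6 and Gstm7 had differences of -0.01, 0.24, -0.42 and -0.33, all with overlapping groups. The probe set that Gstm5 shares with 4933431E20Rik was not called in any comparison, with differences of 0.48 at 52 weeks (adjusted p = 0.167), 0.17 after DEN, -0.13 after BDL and 0.3 at 8 weeks. Gstp1, the pi class transferase, read 11.26, 11.50 and 11.19 in knockout livers, against 11.48, 11.16 and 11.52 in control livers, a difference of -0.07 with a 95% interval of -0.4 to 0.26. The 2 probe sets shared by Gstp1 and Gstp2 differed by -0.19 and -0.18 at 52 weeks, 0.02 and 0.02 after DEN, -0.35 and -0.35 after BDL (adjusted p = 0.157 and 0.143), and -0.27 and -0.24 at 8 weeks, and were not called.

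Gstk1, the kappa class transferase found in mitochondria and peroxisomes, moved the other way. It read 9.37, 9.42 and 9.52 in NEMO/JNKΔhepa livers, against 10.05, 10.83 and 10.62 in control livers, 2.09-fold lower (difference -1.06, SE 0.19, adjusted p = 0.00498). The theta class, which handles small halogenated compounds, had no call: Gstt1 differed by -0.44, Gstt2 by 0.59 and Gstt3 by -0.71, with overlapping groups in each. Without control liver 1, Gstt1 was called lower (-0.72, adjusted p = 0.0192) and so was the mu gene Gstm6 (-0.66, adjusted p = 0.0305). Gsto1, an omega class enzyme that reduces dehydroascorbate, read 8.03 to 8.27 in knockout livers and 8.12 to 8.25 in control livers. Gstz1, the zeta transferase of tyrosine breakdown, shares its probe set with Pomt2, and that set was lower by 0.51 (adjusted p = 0.0245 over the probe sets with several symbols).

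Of the microsomal transferases, which sit in membranes and are unrelated in sequence to the soluble classes, 1 was higher and 1 lower. Mgst2, an enzyme that can make leukotriene C4, read 4.75, 4.36 and 4.46 in NEMO/JNKΔhepa livers, against 3.82, 3.83 and 3.50 in control livers (difference 0.81, SE 0.15, adjusted p = 0.0058). Those control values are near the 2.82 to 3.51 of Mapk9 in livers where it is low and below the array medians of 4.52 to 4.66, so the size of the difference is uncertain. Mgst1, abundant in liver endoplasmic reticulum and outer mitochondrial membrane, read 11.65, 11.64 and 11.63 in knockout livers, against 12.12, 12.55 and 12.39 in control livers (difference -0.71, SE 0.14, adjusted p = 0.00675). The 3 knockout livers agreed for Mgst1 to within 0.02. Mgst3 differed by -0.05 (95% interval -0.38 to 0.28), while the same gene fell strongly in another comparison described further on.

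Glutathione synthesis begins with the ligase of catalytic subunit Gclc and modifier subunit Gclm. Gclc read 10.67, 10.90 and 10.53 in NEMO/JNKΔhepa livers, against 11.31, 11.41 and 11.18 in control livers, and was 1.51-fold lower (difference -0.6, SE 0.14, adjusted p = 0.0145). Gclm read 10.64, 10.64 and 10.55 in knockout livers, against 10.38, 10.36 and 10.35 in control livers. Its difference of 0.25 had the opposite sign and was not called (adjusted p = 0.14). Gss, which completes the tripeptide, differed by 0.42 (adjusted p = 0.108), and Gsr, which reduces oxidized glutathione, by -0.19 (adjusted p = 0.427). The Gclc call was lost without knockout liver 3 (adjusted p = 0.0617).

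Of the 4 glutathione peroxidases 2 were higher. Gpx3, the secreted plasma enzyme, read 7.93, 8.06 and 8.37 in NEMO/JNKΔhepa livers, against 6.43, 6.85 and 5.94 in control livers, 3.28-fold higher (difference 1.71, SE 0.22, adjusted p = 0.00117). Gpx2, the enzyme of gut epithelium and a known NRF2 target, read 5.53, 6.02 and 7.31 in knockout livers, against 4.70, 4.28 and 3.92 in control livers. Its 1.98 (SE 0.4, adjusted p = 0.00908) was the highest difference of the 35 genes, with knockout liver 3 standing above its group. Gpx1, the abundant cytosolic enzyme, read 11.92, 11.92 and 11.80 in knockout livers, against 12.15, 12.29 and 12.21 in control livers. Its difference of -0.34 missed the threshold (adjusted p = 0.0638). Gpx4, which reduces lipid hydroperoxides in membranes, differed by 0.45 (adjusted p = 0.0568), with no overlap between groups.

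Among the classical NRF2 enzymes 5 of 8 were higher and 0 lower, while the transcripts of NRF2 and KEAP1 differed by 0.07 and -0.12. Cbr3, a carbonyl reductase, read 4.71, 4.91 and 4.82 in NEMO/JNKΔhepa livers, against 3.47, 3.58 and 3.91 in control livers (difference 1.16, SE 0.14, adjusted p = 0.000869). Like Mgst2 it is a dim gene, and its control values reach down to the Mapk9 level, so that this size is uncertain as well. No detection call was used here, and Mgst2 and Cbr3 were the 2 of the 35 left untested when dim genes were left out. Its neighbour on chromosome 16, Cbr1, read 9.15, 9.97 and 9.31 against 8.29, 8.60 and 8.47 (difference 1.02, SE 0.21, adjusted p = 0.00933). Hmox1, which breaks down heme and is abundant in macrophages as well, read 8.74, 9.86 and 8.91 in knockout livers, against 7.85, 8.20 and 7.60 in control livers (difference 1.29, SE 0.28, adjusted p = 0.0127). All 3 genes were higher in every knockout liver than in any control liver.

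Nqo1, the quinone reductase most often used as an NRF2 readout, read 6.61, 7.54 and 6.81 in NEMO/JNKΔhepa livers, against 5.51, 6.28 and 5.57 in control livers, a 2.3-fold increase (difference 1.2, SE 0.28, adjusted p = 0.0151). The call was lost without control liver 1 (adjusted p = 0.0595) or control liver 3 (0.0545). Ephx1, the microsomal epoxide hydrolase, read 11.53, 11.46 and 11.25 in knockout livers, against 10.97, 10.79 and 10.84 in control livers (difference 0.55, SE 0.13, adjusted p = 0.0153). That call was lost without knockout liver 1 (adjusted p = 0.0607). Srxn1, which repairs overoxidized peroxiredoxins, differed by 0.66 (adjusted p = 0.0528). Txnrd1, the cytosolic thioredoxin reductase, and Ugdh, which makes the donor sugar for glucuronidation, differed by -0.11 and -0.04.

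**Figure D2:**
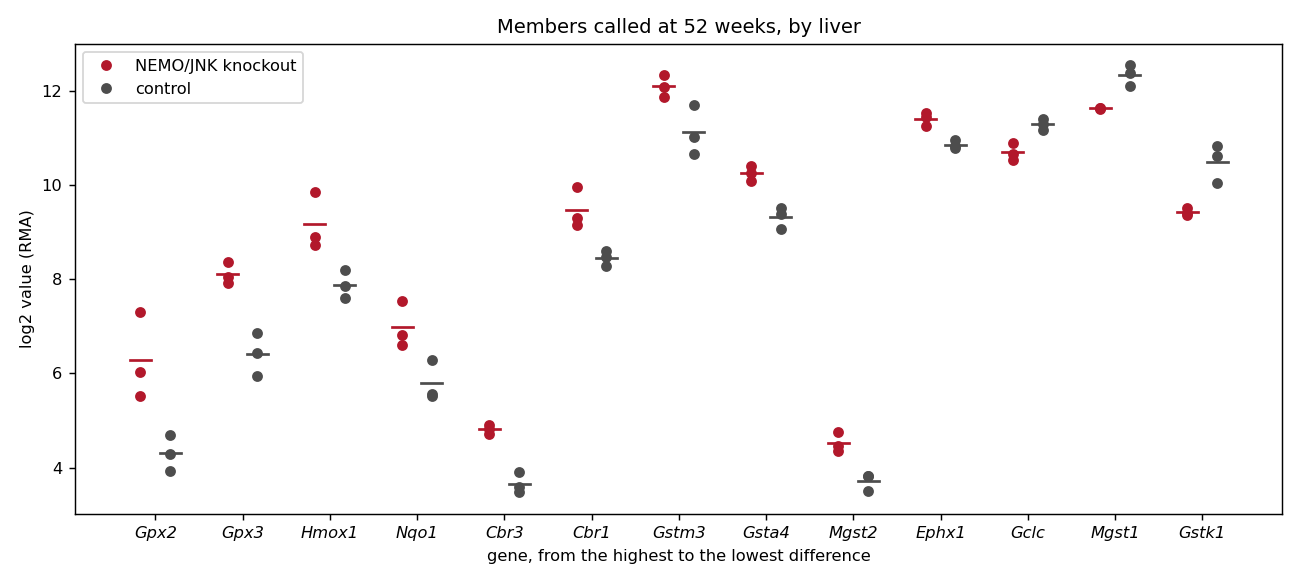
Log2 values of the 13 genes called at 52 weeks, each point 1 liver and each bar a group mean, NEMO/JNKΔhepa livers left of control livers. In all 13 the 3 knockout livers lie on one side of the 3 control livers, from Gpx2 at 1.98 higher to Gstk1 at 1.06 lower; levels of different genes are not comparable.

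Groups that did not overlap were common at 52 weeks. They were found for 20 of the 35 genes, beside 41.2 percent of all genes. Other genes of the pathway moved in both directions. Of 18 further NRF2 targets with a probe set of their own 3 were higher and 1 lower, with a median difference of -0.01. These counts, and those of the 2 lists that follow, stand beside 13.6 percent of all genes higher and 7.9 percent lower. Abcc4, an export pump, read 6.64, 7.67 and 6.40 in knockout livers, against 4.80, 5.91 and 5.46 in control livers (difference 1.51). Me1, malic enzyme, read 9.50, 9.45 and 9.21 against 10.37, 11.20 and 10.99 (difference -1.46). Ptgr1 and the cystine transporter gene Slc7a11 were each 0.63 higher. Of 8 NRF2 regulators only Mafk, a small MAF partner, was called (0.62 higher). Of 10 other glutathione genes Hpgds, a sigma class transferase known from immune cells, was higher by 1.65 and Gpx7 by 0.81, while Gstt4 and Oplah fell by 0.61 and 0.53.

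The cell makeup read by marker genes also differed between the 52-week groups. All 10 biliary markers with a probe set of their own were higher, their mean level being 7.92 to 8.38 in NEMO/JNKΔhepa livers, against 4.62 to 5.19 in control livers. Of 10 macrophage markers 7 were higher and 1 lower, with mean levels of 8.24 to 9.53 against 7.65 to 8.05. Of 8 T and NK cell markers 5 were higher, with mean levels of 5.33 to 5.99 against 4.16 to 4.93. The 11 hepatocyte markers had mean levels of 11.93 to 12.04 in knockout livers and 11.9 to 12.21 in control livers, and 1 was lower. Of 9 pericentral hepatocyte markers 3 were lower, with mean levels of 8.7 to 9.23 against 9.26 to 9.57. Of 13 male-biased liver genes 12 were lower, with mean levels of 6.84 to 7.15 against 9.2 to 10.26. The part these shifts play in the changes of transferases and NRF2 enzymes was not tested.

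How the arrays were scaled mattered at 52 weeks. The median over all genes was -0.045 on the deposited scale and -0.371 when each array was centred on its own median. After centring 13 of the 35 genes were lower in place of 3, where 47.5 percent of all genes were then lower, and the call for Ephx1 was lost (0.22, adjusted p = 0.201). With all 24 arrays in one fit, 4 of the 35 genes were called higher in place of 10, since the spread was then taken from every group. Over all genes 10.6 percent were then higher, in place of 13.6 percent. The higher calls lost were those of Cbr1 (adjusted p = 0.0638), Mgst2 (0.085), Nqo1 (0.0911), Hmox1 (0.126), Gpx2 (0.134) and Cbr3 (0.4). The lower call for Gclc was lost as well (0.194), which left 2 lower, beside 7.32 percent of all genes. With dim genes left out, 10 of the 35 were higher and 4 lower, where 19.8 percent of the genes kept were higher and 13.7 percent lower. The calls for Gsta4, Gstk1, Mgst1 and Gpx3 held under every alternative run.

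After BDL a microsomal transferase had the smallest p of the 35 genes in JNKΔhepa livers. Mgst3, a membrane enzyme with transferase and peroxidase activity, read 5.63, 5.49 and 5.87 in JNKΔhepa livers, against 7.71, 7.27 and 7.48 in control livers. All JNKΔhepa livers lay far below all controls, a 3.53-fold decrease (difference -1.82, SE 0.15, adjusted p = 0.00225). The call held under the scalings, variance models, array weights and replicate block run and without any single liver, with adjusted p-values from 0.000217 to 0.0207.

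Gstm3 and Ephx1 were the other genes called. Gstm3 read 10.65, 10.90 and 11.18 in JNKΔhepa livers, against 12.22, 12.10 and 12.68 in control livers, 2.68-fold lower (difference -1.42, SE 0.19, adjusted p = 0.0151). Its second probe set read 9.67, 10.02 and 10.48 against 11.65, 11.57 and 12.17. Ephx1 read 10.14, 10.19 and 10.27 in JNKΔhepa livers, against 10.99, 10.98 and 11.19 in control livers (difference -0.85, SE 0.11, adjusted p = 0.0108). Both genes had been higher in NEMO/JNKΔhepa livers at 52 weeks. The call for Gstm3 was lost without JNKΔhepa liver 1 (adjusted p = 0.0709), JNKΔhepa liver 2 (0.0898) or control liver 1 (0.0508), and that for Ephx1 without JNKΔhepa liver 1 (0.0709) or 2 (0.0725).

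The shared Gsta1 and Gsta2 probe sets followed the same direction after BDL without passing the test. The first of them read 8.01, 7.72 and 7.95 in JNKΔhepa livers, against 8.89, 9.42 and 10.17 in control livers. Over the 4 sets the differences were -1.61 to -1.5 (adjusted p = 0.0515 to 0.0592 over probe sets with several symbols). The same sets also had differences below 0 after DEN, -0.92 to -0.74 (adjusted p = 0.95), and at 8 weeks, -0.99 to -0.89 (adjusted p = 0.515 to 0.544). In both of these comparisons the groups overlapped for each set, and none was called. The values after DEN were not repeated without the liver with the high Xist value. The other transferases mostly moved less after BDL. Gstm2 differed by -0.46, Gstm1 by -0.38 and Gstp1 by -0.29, each without overlap and each with an adjusted p above the threshold (0.178, 0.244 and 0.313). Gstm7 stood 0.48 and Gstm6 0.66 above control (adjusted p = 0.225 and 0.349), and Gsta3 0.35 above it (0.43).

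**Figure D3:**
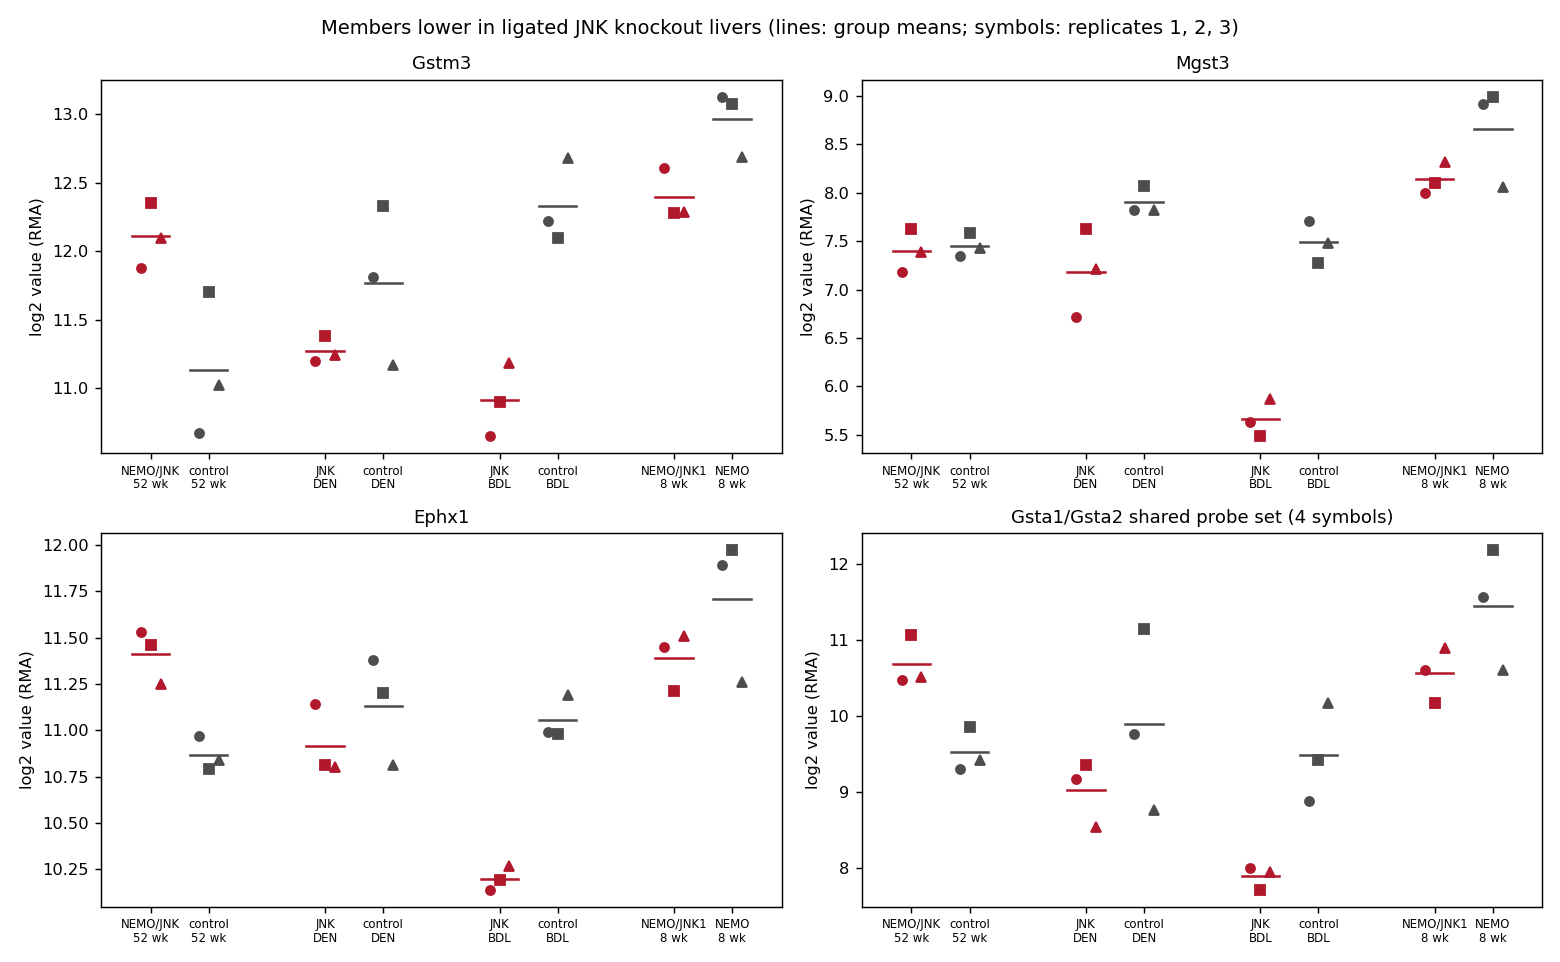
Log2 values of Gstm3, Mgst3, Ephx1 and 1 probe set shared by Gsta1 and Gsta2 in each of the 24 livers, knockout groups left of their comparison groups; symbols are replicates and bars group means. JNKΔhepa livers after BDL are the lowest group of Mgst3, at 5.49 to 5.87, and lie below the ligated controls in all 4 plots.

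Control liver 3 stood apart within the ligated controls. It read 9.05 for Gstm6, 9.22 for Gstm7 and 10.86 for Gclc, where the other ligated controls read 8.06 and 7.80, 8.72 and 8.61, and 9.90 and 9.50. Its animal number also has another prefix than theirs, the prefix that the 3 JNKΔhepa livers carry. Without it, Gstm6, Gstm7 and Gclc were called higher in JNKΔhepa livers (differences 1.03, 0.67 and 0.94, adjusted p = 0.0124, 0.0275 and 0.0391). Over all genes 1.65 percent were then higher. With that liver left out, prefix and genotype cannot be told apart. With the prefix as a block, the difference rests on the 3 JNKΔhepa livers against this 1 control liver, whose spread is taken from the other livers. The differences of Mgst3, Gstm3 and Ephx1 were then -1.81, -1.77 and -0.99, and those of Gstm6, Gstm7 and Gclc -0.09, 0.11 and -0.23. These values add no replicated check of any of the genes.

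The remaining groups of genes passed no test after BDL. Gss differed by -0.48 without overlap (adjusted p = 0.105), Gpx1 to Gpx4 by -0.14, -0.24, -0.32 and -0.17, and Nqo1 by -0.5 without overlap (adjusted p = 0.361). Hmox1 read 9.36, 9.56 and 9.48 in JNKΔhepa livers, against 9.77, 9.43 and 9.50 in control livers. In all, 14 of the 35 genes had groups that did not overlap, beside 20.7 percent of all genes. Of 18 further NRF2 targets and 8 regulators 0 were called by limma, and of 10 other glutathione genes Hpgds was higher (0.99, adjusted p = 0.035). Mean marker levels were 6.49 to 7.1 in JNKΔhepa livers against 5.66 to 6.55 in control livers for biliary genes, 9.03 to 9.23 against 8.84 to 9.08 for macrophage genes, and 12.09 to 12.1 against 11.96 to 12.05 for hepatocyte genes. Pericentral hepatocyte genes were at 8.75 to 8.82 against 7.68 to 8.58. The part of these shifts in the 3 calls was not tested.

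After DEN the spread among livers of a group was wide and no gene was called. Mgst3 had the smallest p of the 35, reading 6.72, 7.62 and 7.21 in JNKΔhepa livers, against 7.82, 8.07 and 7.82 in control livers (difference -0.72, SE 0.23, unadjusted p = 0.0171, adjusted p = 0.985). The groups did not overlap for 3 of the 35 genes, beside 9.47 percent of all genes, and these were Mgst3, Gpx3 and Gclm. Gpx3 read 6.05, 6.80 and 6.82 in JNKΔhepa livers, against 6.97, 7.08 and 8.86 in control livers (difference -1.08, 95% interval -2.3 to 0.14). Without JNKΔhepa liver 3, the liver with the high Xist value, Mgst3 differed by -0.73 and Gpx3 by -1.21, and 0 of the 35 were called (adjusted p = 0.997 for both). Gstm3 differed by -0.5 (95% interval -1.16 to 0.16) and Ephx1 by -0.21 (-0.65 to 0.22), and without that liver by -0.48 and -0.16. The second Gstm3 probe set differed more, by -0.84 over all 6 livers (limma, unadjusted p = 0.0345, adjusted p = 0.998), and was not repeated without that liver. Gstp1 differed by 0.04 with liver 3 and by 0.39 without it (adjusted p = 0.997).

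Whether the JNK difference itself was unlike after BDL and after DEN was tested as an interaction over the 12 livers. Of the 35 genes Mgst3 had the largest interaction, -1.1 (SE 0.29, unadjusted p = 0.00295, adjusted p = 0.388). That of Gstm3 was -0.92 (adjusted p = 0.636) and that of Ephx1 -0.64 (adjusted p = 0.568). None of the 35 genes was called, beside 0.0213 percent of all genes called higher and 0.0266 percent called lower. At an unadjusted p below 0.05, 3 of the 35 passed (7.11 percent of all genes). Without JNKΔhepa DEN liver 3 the interactions were -1.09 for Mgst3 (adjusted p = 0.516), -0.94 for Gstm3 (0.68), -0.7 for Ephx1 (0.581) and, for Gstp1, -0.68 (0.604) in place of -0.33, and none was called. The calls after BDL are thus not shown to be particular to ligation.

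The BDL livers were also set against the DEN livers of the same genotype, which compares different injuries and durations at once and reuses the livers of the comparisons above. In JNKΔhepa livers Gpx3 and Hmox1 were higher and Mgst3 lower after BDL, with 0.77 percent of all genes higher and 0.313 percent lower. Hmox1 read 9.36, 9.56 and 9.48 after BDL, against 8.03, 7.97 and 8.65 after DEN (difference 1.25, SE 0.19, adjusted p = 0.0417). Gpx3 read 8.14, 8.13 and 8.10 after BDL, against 6.05, 6.80 and 6.82 after DEN (difference 1.56, SE 0.21, adjusted p = 0.0307). Mgst3 was lower by 1.52 (adjusted p = 0.0411). These calls rest on few livers: Mgst3 was lost without any of BDL livers 1, 2 and 3 (adjusted p = 0.211, 0.183 and 0.155) or DEN liver 3 (0.118).

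Gpx3 was lost without the same livers (adjusted p = 0.181, 0.148, 0.157 and, without DEN liver 3, 0.0554). Hmox1 was lost without BDL liver 1, 2 or 3 (adjusted p = 0.192, 0.184 and 0.196) or DEN liver 1 (0.0757), and kept without DEN liver 3 (difference 1.47, adjusted p = 0.0188). Without DEN liver 2, 8 of the 35 genes were called lower in place of 1, where 2.6 percent of all genes were then lower. Among these the theta genes Gstt1 and Gstt3 differed by -0.84 and -1.3 (adjusted p = 0.0105 and 0.038) and Gstk1 by -0.7 (adjusted p = 0.0193). In control livers Hmox1 alone was called, reading 9.77, 9.43 and 9.50 after BDL, against 8.31, 8.75 and 8.89 after DEN (difference 0.91, adjusted p = 0.0452), with 1.74 percent of all genes higher and 0.739 percent lower. That call was lost without any single one of the 6 livers (adjusted p = 0.0569 to 0.182).

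At 8 weeks, NEMO/JNK1Δhepa livers had lower values than NEMO livers for 28 of the 35 genes, but none passed the adjusted test. Gstt3, a theta transferase, read 7.11, 5.89 and 6.17 in NEMO/JNK1Δhepa livers, against 8.65, 8.79 and 7.92 in NEMO livers. All values of the double knockout were below all those of the single knockout (difference -2.06, SE 0.37, unadjusted p = 0.000924, adjusted p = 0.544). Gstm3 read 12.61, 12.28 and 12.29 against 13.13, 13.08 and 12.69 (difference -0.57, adjusted p = 0.602). Its second probe set differed by -0.81 (limma, unadjusted p = 0.00296, adjusted p = 0.582). Gstm2, Gstt1 and Gpx1 also had groups without overlap, with differences of -0.85, -0.63 and -0.39. These 5 genes were all lower, and 14.4 percent of all genes had groups without overlap, 7.66 percent in that direction.

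Other genes at 8 weeks could not be placed because the livers differed among themselves. Gpx2 read 5.35, 5.34 and 7.38 in NEMO/JNK1Δhepa livers, against 6.79, 8.75 and 4.18 in NEMO livers, and its difference of -0.55 had a 95% interval of -3.3 to 2.2. Hmox1 read 9.02, 11.00 and 7.06 against 8.86, 8.16 and 8.01. The liver with 11.00, NEMO/JNK1Δhepa liver 2, had a mean macrophage marker level of 10.34, where the others of its group had 9.07 and 7.72, and a mean neutrophil marker level of 7.46 against 4.48 and 3.59. Without it the Hmox1 difference was -0.3 in place of 0.68, and the part of those cells in the value was not tested. Gstt3 without it differed by -1.81 (adjusted p = 0.864).

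In most groups the livers differed more for these genes than for the typical gene. Most of the 35 read above the array medians of 4.52 to 4.66, and the 2 sets of genes were not matched for level. The median range within a group, the highest minus the lowest of 3 livers, was 0.87 for the 35 genes and 0.35 for all genes in NEMO livers at 8 weeks. It was 0.68 and 0.36 in JNKΔhepa livers after DEN, and 0.71 and 0.32 in control livers after DEN. In JNKΔhepa livers after BDL the order was reversed, 0.18 for the 35 genes and 0.24 for all, against 0.58 and 0.3 in ligated control livers. Of the 35 genes Cbr3 and Gpx2 had the widest ranges, 4.45 and 4.57 in NEMO livers at 8 weeks.

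**Figure D4:**
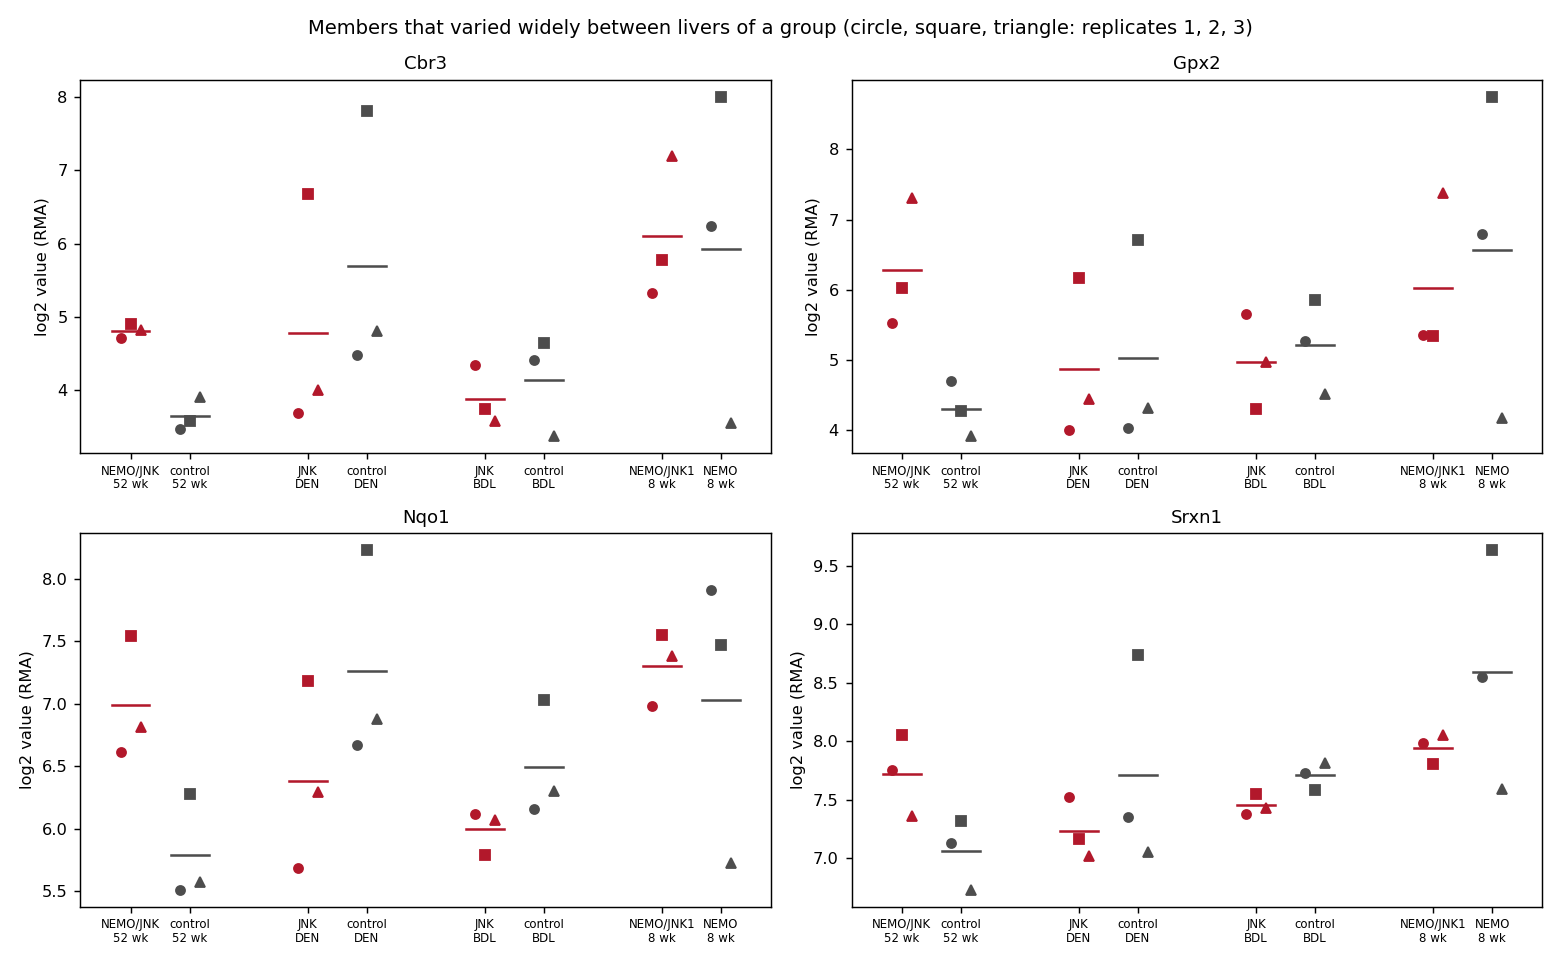
Log2 values by liver of Cbr3, Gpx2, Nqo1 and Srxn1, 4 genes chosen after their wide ranges within groups were seen, in all 8 groups, knockout groups left of their comparison groups; bars are group means. Cbr3 spans 3.55 to 8.00 in NEMO livers at 8 weeks and 3.69 to 6.67 in JNKΔhepa livers after DEN, while the 3 NEMO/JNKΔhepa livers at 52 weeks lie between 4.71 and 4.91.

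The extreme livers were often the same ones. NEMO liver 2 at 8 weeks read 8.00 for Cbr3, 8.75 for Gpx2, 9.63 for Srxn1 and 10.63 for Cbr1, where NEMO liver 3 read 3.55, 4.18, 7.59 and 8.98. Control DEN liver 2 read 7.80 for Cbr3, 6.71 for Gpx2 and 8.23 for Nqo1, where control DEN liver 1 read 4.48, 4.04 and 6.67. In JNKΔhepa livers after DEN, liver 2 read 6.67 for Cbr3 and 6.17 for Gpx2, where liver 1 read 3.69 and 4.01. Cbr3 and Gpx2 were thus highest in the same liver of each of these 3 groups, while Nqo1 was highest in another NEMO liver, liver 1, at 7.91.

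NEMO liver 2 was the highest of its group for 65.7 percent of the 35 genes, against 35.5 percent of all genes, and NEMO liver 3 was the lowest for 71.4 percent, against 37.7 percent. The highest liver took 62.9 percent (NEMO/JNKΔhepa liver 2), 68.6 percent (control liver 2 at 52 weeks), 60 percent (control DEN liver 2) and 62.9 percent (control BDL liver 3) in 4 other groups, where the same livers took 32, 37.7, 32.2 and 35.2 percent of all genes. These shares describe single livers and carry no test, and what set those livers apart was not tested.

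**Figure D5:**
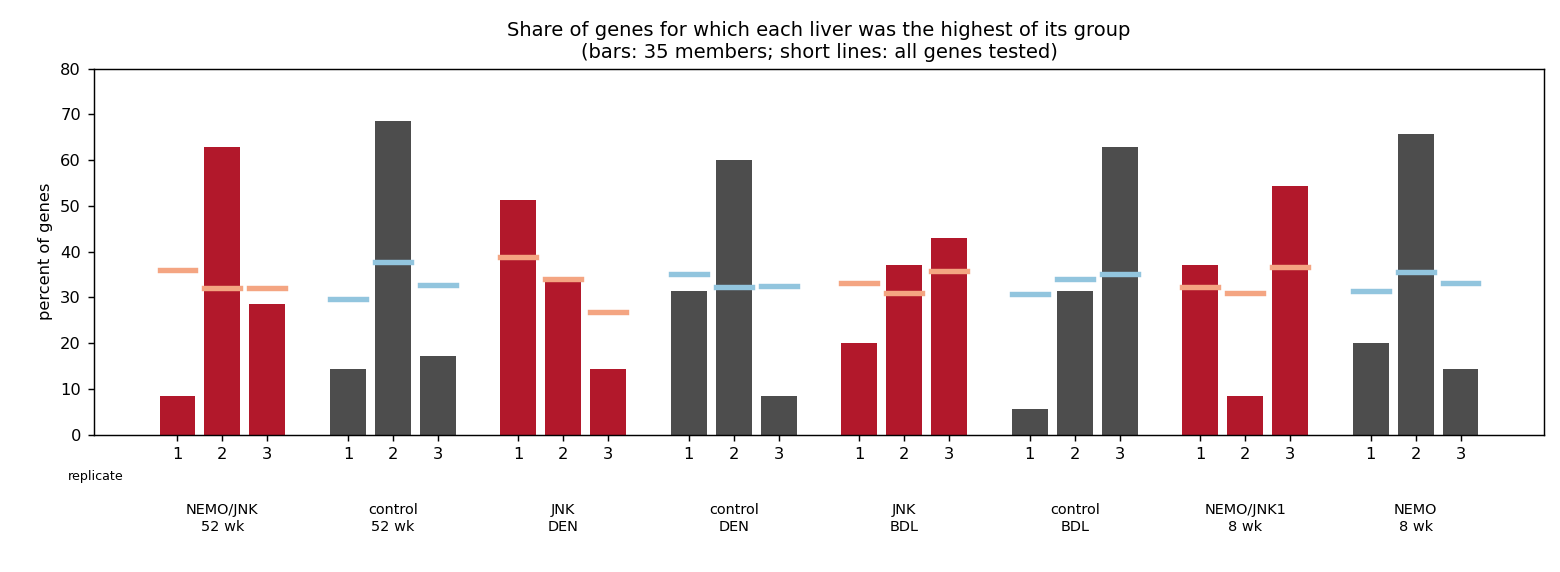
Share of genes, in percent, for which each liver is the highest of its group of 3, as bars for the 35 genes and short lines for all 18820 genes, knockout groups before their comparison groups. The shares for all genes lie between 26.9 and 38.9 percent, and those for the 35 genes between 5.71 and 68.6 percent.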

How the data were processed

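Whole-liver RNA of 24 mice was hybridised to Affymetrix arrays. The deposited table holds 35556 probe sets as log2 values. The authors summarised and normalised them with RMA (submitters' processing notes, no version given). Values ran from 0.684 to 13.48, with array medians of 4.52 to 4.66. Precision is set by having 3 arrays a group. Replicates within groups correlated at 0.966 to 0.987. RMA estimates relative levels, so levels of different probe sets were not compared.

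Probe sets were named through the platform annotation: 21218 carry 1 gene symbol, 1881 several and 12457 none. Each gene with a symbol of its own was read by its probe set with the highest mean over the arrays, giving 18820 genes. Differences in log2 value were tested with limma 3.58.1 in R 4.3.3 on the 6 arrays of each comparison (12 for the interaction), with Benjamini-Hochberg adjustment over all genes and a threshold of 0.05. An exact permutation test of 3 livers against 3 cannot go below 0.1. Probe sets with several symbols were tested apart. The fit was checked on simulated data.

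Members and gene lists were chosen with earlier results of these data known. All members are named, and so is every called gene of the other NRF2 and glutathione lists. Members without a probe set of their own were read only through shared sets, and genes of the other lists without one were not analysed here. Marker lists of biliary, immune, stellate, endothelial and hepatocyte zones and of sex-biased genes were read beside the results. Alternatives covered centring, quantile normalisation, 1 fit over all arrays, a filter on dim genes, variance model, array weights, averaging probe sets, blocks, and each liver left out. Same-numbered livers of a comparison had correlations of their deviations from -0.193 to 0.359, not all above 0.1, so the numbers were not taken as pairs.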

Additional observations from a re-analysis of the deposited data

How the results depend on the processing

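No called difference of the 35 genes changed sign under the alternatives run. Of the values of the 35 genes recomputed, 3568 kept their side of the threshold, 49 lost a call and 50 gained one. Another 60, called neither before nor after, moved by at least the spread within groups. The 3568 include values called both before and after, for which the change in size was not checked. At 52 weeks centring each array gave 13 members lower and, over all genes, 1570 higher and 8942 lower, against 2562 and 1486. Quantile normalisation gave 2426 lower over all genes. The fit over all 24 arrays gave 4 members higher and 1999 of all genes higher. Leaving out each liver in turn gave 8 to 12 members higher and 2 to 5 lower (all genes 1795 to 2327 and 898 to 1586).

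After BDL, all genes called higher numbered 54 in the fit over 24 arrays, 83 with the replicate block and 75 with the animal-number prefix as a block, against 150; those called lower numbered 62, 59 and 43, and 169 with array weights, against 105. Without 1 liver, 0 to 3 members were higher and 1 to 3 lower, with 32 to 310 and 25 to 249 of all genes. After DEN, 0 to 0 members were called either way and 0 to 2 of all genes higher and 0 lower. At 8 weeks the fit over 24 arrays called 19 genes higher and 38 lower and array weights 2 lower; without 1 liver all counts were 0. The interaction had 0 members under each liver left out.

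For BDL against DEN in JNKΔhepa livers, members called lower numbered 2 in the fit over 24 arrays, where 0.478 percent of all genes were lower. They numbered 2 without dim genes (0.744 percent), 10 with array weights (6.08 percent) and 0 with the replicate block (0 percent). Members called higher numbered 0 in the fit over 24 arrays (1 percent of all genes) and 0 with the replicate block (0.00531 percent). Without 1 liver the ranges were 0 to 2 higher and 0 to 8 lower, the 8 beside 2.6 percent of all genes. In control livers 0 members were higher after centring, quantile normalisation, the fit over 24 arrays, the replicate block or the prefix block. In the fit over 24 arrays 2.23 percent of all genes were higher. That fit also had 1 member lower, beside 1.57 percent of all genes. Without 1 liver 0 were higher and 0 to 1 lower. The prefix block was not run for JNKΔhepa livers, which share 1 prefix. The numbers were not taken as pairs, and the labels name no pairs. After DEN, deviations of same-numbered livers correlated at 0.359, 0.301 and 0.0448, against -0.365 to 0.163 for unlike numbers. Whether those livers were paired is not known. With the replicate block 12 members were higher and 4 lower at 52 weeks, beside 12.8 and 7.02 percent of all genes. With that block 3 were lower after BDL (0.313 percent of all genes), and 0 were called after DEN, at 8 weeks and in the interaction. The cause of these changes was not tested. With 3 livers a group, a difference that missed the threshold is not shown to be absent.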

Other observations

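Hpgds, a glutathione-dependent prostaglandin synthase outside the 39 genes, read 9.29 in JNKΔhepa DEN liver 2, where the other livers of that group read 5.42 and 6.14 and control DEN livers 5.15, 5.84 and 5.29. Gpx8, an endoplasmic reticulum peroxidase, read 5.79, 5.50 and 5.42 in JNKΔhepa livers after BDL, against 4.15, 4.42 and 4.66 after DEN, and 5.41, 5.20 and 5.37 in control livers after BDL, against 4.53, 4.79 and 4.60 after DEN. It was called higher after BDL in both genotypes by limma (differences 1.16 and 0.68). Blvrb, biliverdin reductase B, which acts downstream of heme breakdown, read 9.42, 9.77 and 9.91 in control livers after BDL, against 10.56, 10.64 and 10.50 after DEN, and was called lower (difference -0.87).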
